A study of Mus musculus with 2 samples.

Results

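The proteasome is the cylinder-shaped protease that degrades proteins tagged with ubiquitin. Its 20S core stacks rings of alpha subunits, which form the gate, around rings of beta subunits, of which Psmb5, Psmb6 and Psmb7 carry the active sites. The 19S regulatory particle caps the core, and consists of a base with 6 ATPases that unfold and thread the substrate and a lid that removes its ubiquitin. Because the subunits assemble in fixed proportions, their genes are known to be expressed together, under control of the transcription factor encoded by Nfe2l1 when proteasome activity falls short. In interferon-treated cells the catalytic subunits are replaced by Psmb8, Psmb9 and Psmb10, which make the immunoproteasome, and the core is capped by the Psme1 and Psme2 activator.

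The genes described are those for the constitutive subunits, their activators, their inhibitor and their assembly chaperones, chosen by symbol as every probe set annotated to exactly 1 gene named Psma to Psmg with a number, apart from Psmb8, Psmb9, Psmb10 and Psme1. The rule took 43 genes of 18193, with 95 probe sets of the 34945 that had 1 gene. The rule reads symbols only. Psme2 is no member because its probe set was annotated to several genes, and the members include Psma8 and Psmb11, which are known from testis and thymus.

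The RNA of both arrays was labelled as coming from bEnd3, an endothelial line from mouse brain cortex microvessels (strain BALB/c). The line was transformed by polyoma middle T antigen and grown with 15% fetal calf serum. Cells of both groups had been infected with retrovirus from PLAT-E packaging cells and selected with puromycin, and the virus carried an siRNA against Smad4 in the Smad4-siRNA group and a control siRNA in the Control-siRNA group. Each group had 1 Affymetrix array with RNA pooled from 2 infections, so that nothing below has a replicate check and no p-value is given. Values are MAS5 signals after quantile normalization, and a log2 ratio is Smad4-siRNA minus Control-siRNA. A signal under the array median of 22.8, called the floor, was taken as not measured.

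The arrays differed in more than the siRNA label. Smad4, which encodes the common partner of the receptor-activated Smad proteins, gave 1165 on the array labelled Smad4-siRNA against 916 on the Control-siRNA array. Its log2 ratio was 0.35, or -0.07 as deposited, by the brightest of its 3 probe sets. By that probe set, the targeted transcript did not show the decrease that the label implies. Of 16 endothelial markers, 14 were at least 2-fold lower and 0 higher. Their summed signal was 867 against 23385, and 8 of them, among them Pecam1, Cldn5 and Emcn, were too dim on the array labelled Smad4-siRNA to reach the floor. The 12 fibroblast markers included 8 that were at least 2-fold higher and 0 lower, with a summed signal of 31375 against 1020, and 9 of the 12 were too dim on the Control-siRNA array. Counted in the same way, 16.0% of all 11581 genes measured on at least 1 array were at least 2-fold higher and 15.8% lower. Xist was bright enough only on the array labelled Smad4-siRNA, and Eif2s3y, Kdm5d and Uty, which are Y-linked, only on the Control-siRNA array. The labels name the same line for both arrays, and whether both held it was not tested. "Higher" and "lower" therefore describe the array labelled Smad4-siRNA, not a response to loss of Smad4, and the share of these marker differences in the proteasome values was not tested. In bulk RNA, fewer cells of one type and less RNA per cell cannot be told apart.

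Proteasome genes were mostly lower by a small amount. Of the 43 members, 41 were measured on both arrays, and the 2 others, Psma8 and Psmb11, were under the floor on both. The measured members had a median log2 ratio of -0.46 and ran from -1.75 for Psmc5 to 1.0 for Psmg4, and 34 of the 41 (82.9%) were below 0 against 57.1% of the 9479 genes measured on both arrays. At least 2-fold lower were 7 members (17.1%), namely Psmc5, Psmc4, Psmd13, Psmg3, Psme3, Psmd6 and Psmb3, where 15.0% of all measured genes were so. At least 2-fold higher were 0 members, against 12.6% of all measured genes. After quantile normalization the share called lower was thus close to that of all genes, and the share called higher was below it.

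Bright genes spread less on arrays, so the members were also set beside the 4437 genes with signals at least 8 times the floor on both arrays, of which 39 were members. The bright genes had a median log2 ratio of -0.11 with 57.1% below 0, and 9.35% were at least 2-fold lower and 7.80% higher, against 17.1% and 0% of the measured members. These member shares are over all 41. Psme3, which was among those called lower, and Psmg4 were not bright by this rule. The SD of the log2 ratios was 0.57 over the 41 members, 0.78 over the bright genes and 1.10 over all measured genes. The median of all genes itself moved with the scaling, from -0.15 after quantile normalization to -0.33 as deposited. The members' median lay below that of the bright genes by 0.35 after quantile normalization and by 0.31 after removal of a lowess trend on signal. It lay below by 0.34 as deposited and after centring on the median, which are equal by construction.

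**Figure D1:**
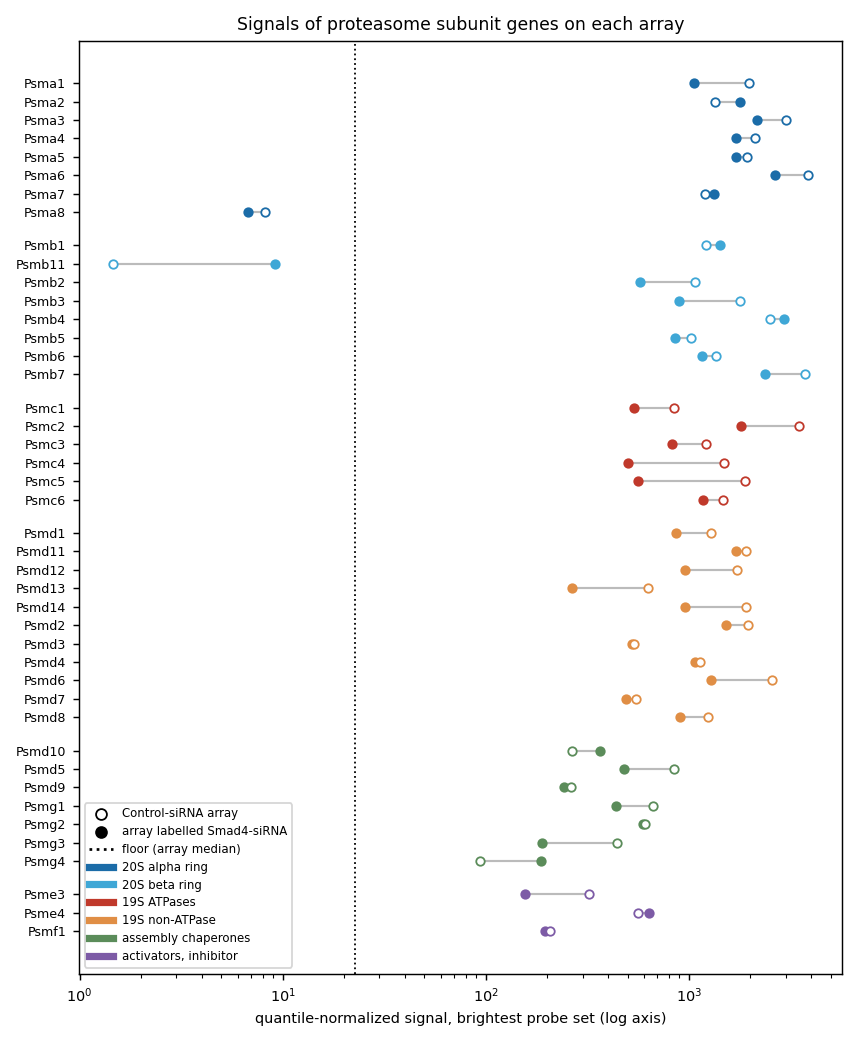
Quantile-normalized signal (log axis) of the brightest probe set of each of the 43 member genes on the Control-siRNA array (open circles) and the array labelled Smad4-siRNA (filled circles), coloured by subcomplex, with the floor of 22.8 dotted. Filled circles lie to the left of open ones for 34 of the 41 measured genes, and only Psma8 and Psmb11 lie under the floor.

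The ATPases of the 19S base differed most. All 6 were below 0 by their brightest probe sets under each of the 4 scalings of the arrays, with a median log2 ratio of -0.81. The signal of Psmc5 was 565 on the array labelled Smad4-siRNA against 1900 on the Control-siRNA array, 3.36-fold lower, and pairs of signals below keep this order. Psmc4 had signals of 502 and 1491 and was 2.97-fold lower, and its second probe set (369 and 965) gave a log2 ratio of -1.39 beside -1.57. These were the lowest log2 ratios of all measured members. As deposited, the signals were 499 and 2136 for Psmc5 and 444 and 1703 for Psmc4.

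The ATPases are built into the base as pairs, each held by its own assembly chaperone, and the pairs are Psmc4 with Psmc5, Psmc1 with Psmc2, and Psmc3 with Psmc6. Psmc2 had signals of 1813 and 3513 (log2 ratio -0.95) and Psmc1 of 535 and 851 (log2 ratio -0.67). Psmc3 had signals of 832 and 1222 (log2 ratio -0.55) and Psmc6 of 1178 and 1472 (log2 ratio -0.32). Partners thus differed from each other by 0.18, 0.29 and 0.23 on the log2 scale, while the single ATPases ran from -1.75 to -0.32. Only Psmc4 with Psmc5 stood apart. Psmc1 and Psmc3, of different pairs, lay nearer to each other than to their partners. The pairing was looked at after the values were seen, and its differences are smaller than the pooled SD of 0.52 between probe sets of one member gene, so they show no order within a pair. The other probe sets of Psmc6 (-0.77 and -0.80) lay nearer to Psmc1 than its brightest did.

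The promoters of Psmc4 and Psmc5 are shown because these genes had the lowest ratios, and those of Psmb5 and Psmb6 because they are catalytic subunits whose promoters hold the motif TGACNNNGC. That motif is the core of the antioxidant response element, the kind of element bound by the Nfe2l1 product, and was searched on both strands. The sequences are RefSeq's for GRCm38.p6, 250 bases before to 50 bases from the start of the gene, with the matched motif in capitals. Psmc5 (chr11:106255935-106256234, plus strand) and Psmc4 (chr7:28050043-28050342, minus strand) had no match and stand in lower case. In Psmb5 (chr14:54617946-54618245, minus strand) the match ran from -47 to -39 and in Psmb6 (chr11:70525107-70525406, plus strand) from -9 to -1, with the first transcribed base counted as 0.
Psmc5: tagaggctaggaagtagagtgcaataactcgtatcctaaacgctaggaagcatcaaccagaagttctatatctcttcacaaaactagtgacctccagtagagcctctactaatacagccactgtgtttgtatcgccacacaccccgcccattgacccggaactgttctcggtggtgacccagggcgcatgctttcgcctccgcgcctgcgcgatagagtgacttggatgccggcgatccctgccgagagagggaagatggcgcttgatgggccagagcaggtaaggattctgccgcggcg
Psmc4: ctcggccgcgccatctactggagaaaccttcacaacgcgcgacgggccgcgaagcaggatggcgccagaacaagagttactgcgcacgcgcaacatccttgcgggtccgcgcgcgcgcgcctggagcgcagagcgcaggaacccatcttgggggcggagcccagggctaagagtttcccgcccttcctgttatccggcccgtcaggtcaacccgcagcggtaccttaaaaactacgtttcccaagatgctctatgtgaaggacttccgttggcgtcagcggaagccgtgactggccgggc
Psmb5: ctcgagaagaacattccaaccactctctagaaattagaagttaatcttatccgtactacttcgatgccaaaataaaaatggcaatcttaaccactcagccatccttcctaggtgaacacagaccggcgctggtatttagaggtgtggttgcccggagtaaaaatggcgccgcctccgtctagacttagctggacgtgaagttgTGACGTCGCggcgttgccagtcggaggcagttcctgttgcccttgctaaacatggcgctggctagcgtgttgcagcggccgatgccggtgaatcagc
Psmb6: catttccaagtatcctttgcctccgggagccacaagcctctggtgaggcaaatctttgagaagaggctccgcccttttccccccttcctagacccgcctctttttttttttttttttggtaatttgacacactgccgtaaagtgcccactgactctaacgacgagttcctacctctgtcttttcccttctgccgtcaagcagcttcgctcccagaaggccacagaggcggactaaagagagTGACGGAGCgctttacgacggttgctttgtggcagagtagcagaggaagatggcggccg

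Promoters in the table were found for 35 of the 43 members, with 37 start sites. The TGACNNNGC motif lay in 6 of these 37 promoters (16.2%), those of Psmb5, Psmb6, Psmc6, Psmd12, Psmd9 and Psme4, and in 12.4% of all 32851 promoters of the same length. Log2 ratios of these 6 genes ran from -0.86 for Psmd12 to 0.19 for Psme4. The CCAAT motif bound by NF-Y, on both strands, was in 13 of the 37 (35.1%) and in 37.4% of all promoters. Neither share was far from that of all promoters, and a match or its lack in this window says nothing of binding.

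The lid and the other base subunits were lower without exception by their brightest probe sets, though many by little. All 11 were below 0, with a median of -0.46, but with a lowess trend removed Psmd3 was at 0.08. The largest difference was that of Psmd13, a lid subunit, with signals of 268 and 632 (2.36-fold lower), and its second measured probe set gave -1.30 beside -1.24. Psmd14, the deubiquitinase of the lid, had signals of 962 and 1908 (1.98-fold lower). The lid subunit Psmd12 had signals of 954 and 1733 (1.82-fold lower), whereas Psmd3 (526 and 536), Psmd7 (493 and 552) and Psmd11 (1717 and 1909) had log2 ratios of -0.03, -0.16 and -0.15. The other measured probe set of Psmd7 (75.9 and 43.0) gave 0.82. In Psmd11 all 5 measured probe sets were below 0, from -0.90 to -0.15. The lid subunit Psmd8 had a log2 ratio of -0.46. The base scaffolds Psmd1 and Psmd2 had log2 ratios of -0.56 and -0.36, and the ubiquitin receptor Psmd4 of -0.09, with -0.32 and -0.88 in its other probe sets. Over the 8 lid subunits the median was -0.66, and over these 3 base subunits -0.36. The lid median counts Psmd6 by its brightest probe set, although its probe sets disagree (below). Without Psmd6 the median of the lid and other base subunits together was -0.41 over 10 genes, so the gap between lid and base is not settled.

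Psmd6, a lid subunit, gave opposite answers in its probe sets. The brightest had signals of 1286 and 2580 (log2 ratio -1.0) and the other of 783 and 176 (log2 ratio 2.15), a gap of 3.16. No other member had probe sets so far apart, the next gap being 1.12 in Psma1. The direction of Psmd6 is therefore not settled by these arrays. Without Psmd6 the median over the members was -0.41 and the pooled SD between probe sets dropped from 0.52 (20 genes) to 0.33 (19 genes), where all genes gave 0.47.

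**Figure D2:**
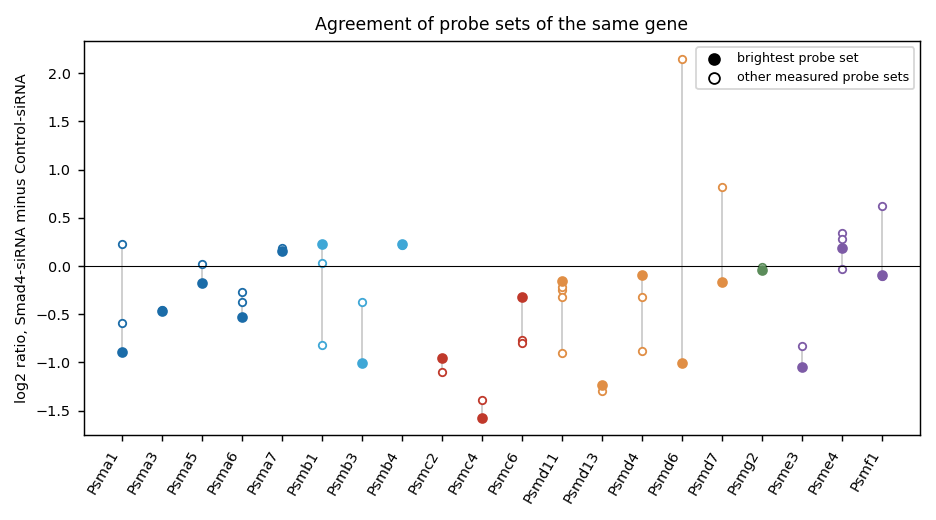
Log2 ratio (Smad4-siRNA minus Control-siRNA) of every probe set measured on both arrays, for the 20 member genes with 2 or more such probe sets. Filled circles are the brightest probe set of a gene and open circles the others, and the probe sets of Psmd6 lie 3.16 apart while those of Psma3, Psma7 and Psmb4 coincide.

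Of the 20 members with 2 or more measured probe sets, 13 had probe sets of 1 sign and 7 of both signs. Over the 72 member probe sets measured on both arrays, 55 were below 0 and 17 above. Probe sets of one gene are repeat readings, 5 of them from Psmd11 alone. The share over all probe sets was not taken, and 57.1% of all measured genes were below 0. The members with a single measured probe set numbered 21, among them Psmc5, and for these no second reading exists.

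Core subunits went both ways around a smaller shift. Of the 14 measured, 10 were below 0 and 4 above, with a median of -0.28, and 1 was at least 2-fold lower. In the alpha ring, whose subunits form the gate, Psma1 was farthest below (1068 and 1979, log2 ratio -0.89, but 0.23 and -0.59 in dimmer probe sets). Psma6 (2672 and 3856) and Psma3 (2173 and 3011) followed with log2 ratios of -0.53 and -0.47, and Psma4 and Psma5 had -0.31 and -0.17. Psma7 (1335 and 1201) and Psma2 (1789 and 1346) were above 0, at 0.15 and 0.41, but as deposited Psma7 was at -0.24 and Psma2 at 0.06. The ring thus held subunits on both sides of 0, and which side Psma7 took depended on the scaling.

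In the beta ring the structural subunits Psmb3 and Psmb2 were lowest. Psmb3 had signals of 898 and 1799 (log2 ratio -1.0, and -0.37 in its other probe set), and Psmb2 of 576 and 1074 (-0.90). Psmb1 (1432 and 1220) and Psmb4 (2956 and 2526) were at 0.23 each, and were at -0.17 and -0.03 as deposited. Dimmer probe sets of Psmb1 gave 0.03 and -0.82, whereas the other probe set of Psmb4 gave 0.22. Among the catalytic subunits, Psmb7, which carries the trypsin-like activity, had signals of 2387 and 3751 (-0.65). Psmb5, with the chymotrypsin-like activity, had signals of 861 and 1027 (-0.25). Psmb6, with the caspase-like activity, had signals of 1160 and 1360 (-0.23). All 3 were below 0 and none by as much as 2-fold.

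Of the inducible counterparts of the catalytic subunits, which are not members, Psmb8 and Psmb9 were at least 2-fold higher and Psmb10 was not. Psmb8, which takes the place of Psmb5, had signals of 526 and 49.4 and was 10.6-fold higher, so that its log2 ratio exceeded that of Psmb5 by 3.66. Psmb9, the counterpart of Psmb6, had signals of 83.2 and 32.8 (2.54-fold higher), and exceeded Psmb6 by 1.57. The Control-siRNA signals of Psmb8 and Psmb9 lay not far above the floor of 22.8. With the floor at the 75th percentile neither was measured on both arrays. Psmb8 also had a second probe set, whose value is not given here. Psmb10, the counterpart of Psmb7, had signals of 190 and 195, a log2 ratio of -0.04. It was at -0.26 as deposited and at 0.06 with a lowess trend removed, so its side of 0 depended on the scaling. The activator gene Psme1 had signals of 1582 and 490 (3.23-fold higher). With 3 of 4 at least 2-fold higher, against 12.6% of all measured genes, the 4 inducible genes had a median of 1.52, beside -0.46 for the members.

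**Figure D3:**
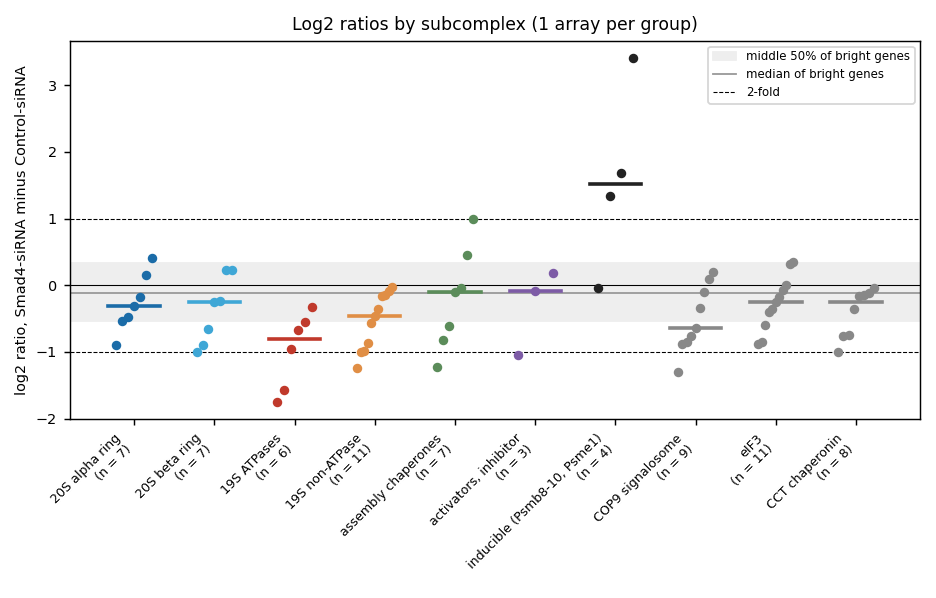
Log2 ratio (Smad4-siRNA minus Control-siRNA) of each gene measured on both arrays, by subcomplex (coloured), with the 4 inducible genes (black) and 3 other multi-subunit complexes (grey). Each point is 1 gene and the short bars are medians. The ATPase median of -0.81 is the lowest and the inducible median of 1.52 the highest, and the shaded band is the middle 50% of the bright genes, from -0.53 to 0.34.

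Assembly chaperones had the widest spread among the groups of members, with an SD of 0.76 over 7 genes and a median of -0.10. The chaperones of the alpha ring act as the pairs Psmg1 with Psmg2 and Psmg3 with Psmg4. Psmg3 had signals of 189 and 441 and was 2.33-fold lower, whereas Psmg4 had signals of 188 and 94.4, a log2 ratio of 1.0 that was just short of 2-fold. These partners therefore differed by 2.22 on the log2 scale. Psmg4 was measured by 1 probe set only, whose Control-siRNA signal was 4.14 times the floor, and its other probe set was under the floor on both arrays. Psmg1 (439 and 667) and Psmg2 (594 and 612) had log2 ratios of -0.61 and -0.04.

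Psmg4 is also 1 of 4 members whose promoter holds the element of interferon regulatory factors, spelled as GAAA, any 2 bases and GAAA and searched on both strands. The others were Psmb3, Psmd4 and Psmd9, and the 4 promoters made 10.8% of the members' 37 against 3.44% of all promoters. Log2 ratios of the 4 genes were 1.0 for Psmg4, -0.09 for Psmd4, -0.10 for Psmd9 and -1.0 for Psmb3, so the genes that share the motif did not share a direction. The promoter of Psmg4 (chr13:34162714-34163013, plus strand, GRCm38.p6) is shown because this gene had the highest ratio of the members, with the motif in capitals from 15 to 24 after the start.
Psmg4: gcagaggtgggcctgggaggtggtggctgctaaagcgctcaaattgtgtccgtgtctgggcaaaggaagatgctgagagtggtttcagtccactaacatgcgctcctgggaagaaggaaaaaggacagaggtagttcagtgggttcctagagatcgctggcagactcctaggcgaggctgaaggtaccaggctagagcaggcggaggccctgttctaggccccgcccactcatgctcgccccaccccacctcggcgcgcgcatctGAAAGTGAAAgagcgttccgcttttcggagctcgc

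Among the chaperones of the ATPase pairs, 1 lay on the other side of 0 from its clients after quantile normalization. That was Psmd10, which encodes gankyrin, holds the products of Psmc4 and Psmc5 and had signals of 364 and 265. Its log2 ratio was 0.46, or 0.15 as deposited, while its clients were the lowest members. Psmd5, which holds Psmc1 and Psmc2, had signals of 478 and 846 (-0.82). Psmd9, which holds Psmc3 and Psmc6, had signals of 245 and 262 (-0.10). With a lowess trend removed Psmd9 was at 0.007, while Psmc3 and Psmc6 were at -0.51 and -0.28, so its side of 0 depended on the scaling.

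Activators and the inhibitor gave 1 member at least 2-fold lower. Psme3, the nuclear PA28 gamma activator, had signals of 157 and 323 (2.06-fold lower), and its second probe set gave -0.83. Psme4, the PA200 activator, had signals of 639 and 560, a log2 ratio of 0.19 that was -0.18 as deposited. Psmf1, which encodes the inhibitor PI31, had signals of 196 and 209 (-0.09), with 0.62 in another probe set.

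Other genes of the ubiquitin-proteasome pathway were read from lists of subunits and assembly factors with other symbols, shuttles and deubiquitinases, transcriptional control, and ubiquitin, its activation and substrate extraction. Of 32 such genes 22 had a probe set of their own, all measured on both arrays, and the 10 others (among them Uba1 and Adrm1) gave no value. Of the 22, 3 (13.6%) were at least 2-fold lower, 1 (4.55%) was at least 2-fold higher and 18 lay between, where 15.0% and 12.6% of all measured genes were lower and higher. Their median was -0.24, beside -0.15 for all measured genes and -0.11 for the bright ones.

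The largest single difference was that of Zfand2a, an arsenite-inducible gene whose product binds the proteasome, with signals of 164 and 1819 (11.1-fold lower). Ube3c, a ubiquitin ligase that acts at the proteasome, had signals of 169 and 500 (2.96-fold lower), and Fbxo7, which binds PI31, had 92.8 and 212 (2.28-fold lower). Ngly1, the deglycosylase that processes the Nfe2l1 product, had 391 and 130 (3.01-fold higher). Nfe2l1 itself had signals of 524 and 425, a log2 ratio of 0.30 that was -0.05 as deposited. The named genes of this pathway went both ways, and the direction of Nfe2l1 depended on the scaling.

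Complexes built on the same principle were set beside the members. The COP9 signalosome, whose subunits resemble those of the lid, had a median of -0.63 over 9 genes with Cops7a farthest from 0 at -1.30. The initiation factor eIF3, also related to the lid, had a median of -0.25 over 11 genes with Eif3c at -0.88. The CCT chaperonin had a median of -0.25 over 8 genes with Cct6a at -1.0. Their SDs of 0.50, 0.41 and 0.37 were below the 0.57 of the members, which also include chaperones, activators and the inhibitor. Over the 20S core alone the SD was 0.46 and over the 19S regulatory particle 0.51, both close to that of the COP9 signalosome. A small shift below 0 was therefore not particular to the proteasome on these arrays.

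The scaling of the arrays decided how many members passed 2-fold. As deposited, 14 members (34.1%) were at least 2-fold lower and 0 higher, where 20.6% and 10.8% of all measured genes were. Centred on the median, the counts were 13 (31.7%) and 1 (background 16.9% and 12.5%), and with a lowess trend removed 4 (9.76%) and 1 (background 12.6% and 14.0%). The share called lower was thus above that of all genes as deposited and after centring, and below it with the lowess trend removed. The 1 higher member was Psmg4. Over all alternatives that gave a value, Psmc5, Psmc4 and Psmg3 were at least 2-fold lower in 8 of 8 and Psmd13 in 7 of 7. Psmd6 and Psme3 were so in 6 of 8 and Psmb3 in 5 of 8. These tallies include alternatives that could not differ, since moving the floor leaves the ratio of a measured gene unchanged. For Psmc5, which had 1 probe set, the alternatives on probe sets also returned the same -1.75. Among all genes called 2-fold, the higher ones made up 45.6% after quantile normalization, 34.3% as deposited, 42.6% after centring and 52.7% after the lowess removal. Members below 0 numbered 34, 38, 37 and 30 of 41 in the same order (82.9%, 92.7%, 90.2% and 73.2%). The shares of all measured genes below 0 moved too, at 57.1%, 64.7%, 59.5% and 52.1%. Those of the bright genes were 57.1%, 69.8%, 63.9% and 51.3%. Beside these values, 11 of 16 proliferation genes were at least 2-fold higher and 0 lower, and their part in the proteasome values was not tested.

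**Figure D4:**
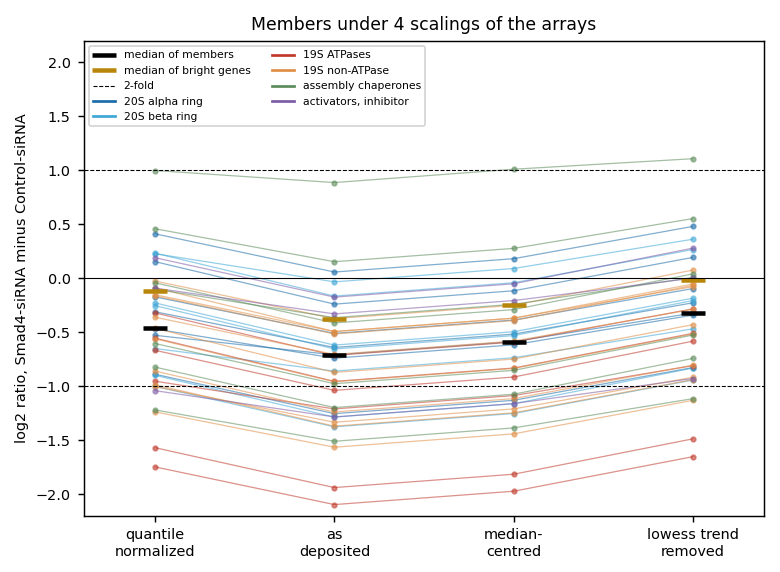
Log2 ratio (Smad4-siRNA minus Control-siRNA) of the 41 measured members under 4 scalings of the arrays, 1 line per gene, coloured by subcomplex. Black bars are the median of the members (-0.46, -0.72, -0.59 and -0.32 from left to right) and gold bars that of the bright genes (-0.11, -0.38, -0.25 and -0.02), with 2-fold dashed. The lines shift together while the distance between the bars stays between 0.31 and 0.35. Centring shifts all deposited log2 ratios by the same constant, so the distance is equal in those 2 scalings by construction.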

How the data were processed

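Affymetrix arrays of 2 pooled samples, 1 per group by sample title, were used. Per the submitters' processing notes, the deposited intensity of each probe set is a MAS5 signal, and its values are linear. No MAS5 version, scaling target or detection call was stated in these sources. The table held 45101 probe sets, of which 64 controls were left out. Gene names came from the supplied platform annotation, updated by gene identifier through RefSeq's table (GRCm38.p6), which matched 18032 of 18194 identifiers. Of the probe sets, 34945 had 1 gene, 932 several and 9160 none.

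Log2 intensities were quantile normalized with numpy 2.4.6 and pandas 2.3.3 (Python 3.11.15). The brightest probe set by mean log2 signal stood for a gene, and the array median served as the floor. With 1 side under the floor, a fold is a bound against it. With 1 array per group no test was made; counts past 2-fold, medians and SDs describe these arrays, whose number limits the precision. The scripts were tested on simulated data. Members, gene lists and motifs were chosen with earlier results of these data known. All members could be named, as could the inducible genes, pathway genes past 2-fold and the farthest gene of each comparison complex. Nfe2l1, the ATPase and chaperone pairings and Xist with the Y-linked genes were singled out after values were seen. Marker lists of pericytes and smooth muscle (4 of 8 at least 2-fold higher, 0 lower) and leukocytes (1 of 5 lower, 0 higher) were also read.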

Additional observations from a re-analysis of the deposited data

How the results depend on the processing

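With 1 array per group no error between arrays can be given, and no paired analysis was possible because each group had 1 sample. Values under the floor have no order, and leaving out a replicate could not be done. As deposited, medians were -0.72 for all members, -0.64 and -0.66 for the alpha and beta rings, -1.13 for the ATPases, -0.87 for the other 19S subunits, -0.41 for the chaperones, -0.92 for the COP9 signalosome, -0.61 for eIF3 and -0.59 for CCT, and 14 members were at least 2-fold lower. Centring on the median gave -0.59 for the members, -0.52 and -0.53 for the rings, -0.75 for the other 19S subunits, -0.48 for eIF3 and -0.46 for CCT, with 13 members lower and 1 higher. Removal of a lowess trend gave -0.32 with 4 lower and 1 higher. A floor at the 25th percentile changed the counts over all genes to 1890 higher and 2164 lower, and one at the 75th to 469 and 592, as fewer or more genes were left out. With the higher floor the chaperone median was -0.35 over 6 genes and the inducible median 0.83 over 2. Taking the median of each gene's probe sets gave a member median of -0.32 with 4 lower and 2 higher, turned Psmd6 to 0.57 and moved Psma1 to -0.18 and Psmc1 to 1.03, where a probe set under the floor on both arrays entered. Without suffixed probe sets the chaperone median was -0.35 over 6 genes and that of 34 members -0.46. The added pseudocount moved no summary value past these limits. Leaving out Psmd6, an alternative added after the data were seen, gave 6 members lower. With the lowess trend removed, the chaperone median turned from -0.10 to 0.007, and that of the activators and inhibitor from -0.09 to 0.0004. Both changes were within the error limit used, and no other median over the members or a subcomplex changed sign. That limit was the pooled probe set SD over the root of the number of genes. It takes the genes as independent and holds no error between arrays.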
